A study of Mus musculus with 80 samples.

Results

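Cytosolic ribosomal protein genes are described here across 5 tissues of mice injected with the α-emitter astatine. The members are the genes whose symbol is Rpl or Rps with a number, together with Rpsa and the stalk genes Rplp0, Rplp1 and Rplp2; mitochondrial ribosomal proteins (Mrpl, Mrps) and S6 kinases (Rps6k) are not among them. This gave 64 genes, 40 of the large and 24 of the small subunit, out of 16593 genes with a symbol on the array. They are measured by 82 of its 25697 probes, with 49 genes on 1 probe and 15 on several. For a gene with several probes, the one with the highest mean signal was used. Of the 64 genes, 55 lay above background on all 80 arrays and are called the bright genes below. The other 9 are Rpl14, Rpl17, Rpl21, Rpl39l, Rpl3l, Rpl6, Rplp2, Rps23 and Rpsa.

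The cytosolic ribosome is built from a large and a small subunit, each an assembly of ribosomal RNA with many proteins. The genes of these proteins are among the most strongly transcribed in mammalian cells, and their mRNAs carry a run of pyrimidines at the 5' end (the TOP motif) through which mTOR signalling controls their translation. Ribosomal proteins are made in amounts that match each other, and an excess of free Rpl5 or Rpl11 binds Mdm2 and stabilises p53, so the family also reports on disturbed ribosome assembly. Tissues with many dividing or protein-secreting cells are known for a high ribosome content.

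All mice were adult female BALB/c nude mice, which lack a functional thymus (Foxn1nu) and most mature T cells. Each exposed mouse received 1 injection into the tail vein: 1.7 kBq with death at 1 h, 6 h or 7 days (n = 3 mice each), 105 kBq with death at 1 h (n = 2) or 7.5 kBq with death at 6 h (n = 2). Controls were mock-treated with phosphate-buffered saline and killed at 24 h (n = 3), a time that no exposed group shares. RNA of the spleen, the lungs, the liver and both parts of the kidney, cortex and medulla, was hybridised to Illumina MouseRef-8 arrays, 16 per tissue. The methods describe all tissues as taken from each mouse, but the labels do not say which arrays share one.

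Values are log2 of quantile-normalised signal, which ran from 6.47 to 14.76 with background up to 6.88. Tissue markers followed the labels in the controls: the median of 12 hepatocyte genes was 14.19 in the liver and 6.71 to 6.89 elsewhere, and the median of 9 lung epithelium genes was 13.05 in the lungs and 6.73 to 6.77 elsewhere. On 4 exposed arrays, called the arrays in doubt below, the median of another tissue's markers lay at least 4-fold above its median over the 16 arrays of that tissue. Hepatocyte genes had a median of 14.19 on kidney medulla 1.7 kBq 7 days replicate 1 and 12.25 on kidney cortex 7.5 kBq 6 h replicate 1, exocrine pancreas genes had 12.98 on spleen 1.7 kBq 7 days replicate 1, and proximal tubule genes had 9.92 on lung 7.5 kBq 6 h replicate 1. Below that limit, hepatocyte genes had a median of 8.09 on lung 105 kBq 1 h replicate 2, 7.55 on spleen 105 kBq 1 h replicate 1 and 7.46 on kidney medulla 1.7 kBq 1 h replicate 3, arrays that were kept in all fits. The medulla array in doubt had medians of 6.805 for proximal tubule and 6.755 for loop and collecting duct genes, within background. Medulla controls had 11.86 and 10.51, so by its markers this array was liver and not kidney. All 4 arrays in doubt were kept in the main fits. Changes in their groups are also given without them.

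Promoter windows of 300 bases in the RefSeq tables (GRCm38.p6) matched 55 of the 64 genes by symbol. A run of at least 7 C or T within 15 bases of the annotated start stood in 26 of the 55 (47.3%), against 18.5% of 27025 promoters. The ETS motif CCGGAAG, on both strands of the window, stood in 21 (38.2%) against 9.12%, and the YY1 motif CCATNTT, also on both strands, in 18 (32.7%) against 16.3%. The letters TATAAA at 20 to 40 bases before the start, on the gene's strand, stood in 1 of 55 (1.82%) against 2.13%. The motifs are matches of letters and not measured sites. In the sequences below, capitals mark only the longest run of at least 7 C or T within 15 bases of the start, where there is one. Shorter runs are not marked, and in Rps15a such a run spans the start. The sequences are 60 bases before and 15 after the start of the genes that the results return to, 5' to 3' on the gene's strand. They lie at chr7:118116133-118116207 (minus strand, Rps15a), chr7:45128731-45128805 (minus, Rpl13a), chr9:66946026-66946100 (plus, Rps27l), chr3:90213634-90213708 (minus, Rps27), chr3:28805448-28805522 (plus, Rpl22l1) and chr3:86142654-86142728 (minus, Rps3a1). Rps27 and Rps27l are shown as a pair that parted between tissues, and Rps3a1 and Rpl22l1 as the most variable pair.
Rps15a: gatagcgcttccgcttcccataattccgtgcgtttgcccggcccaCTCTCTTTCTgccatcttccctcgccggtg
Rpl13a: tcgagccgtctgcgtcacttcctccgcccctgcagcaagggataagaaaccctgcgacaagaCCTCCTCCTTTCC
Rps27: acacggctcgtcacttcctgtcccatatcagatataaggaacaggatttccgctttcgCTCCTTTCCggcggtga
Rps27l: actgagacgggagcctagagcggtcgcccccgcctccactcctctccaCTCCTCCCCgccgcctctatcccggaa
Rpl22l1: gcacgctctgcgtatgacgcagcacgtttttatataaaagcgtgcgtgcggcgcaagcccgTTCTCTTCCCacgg
Rps3a1: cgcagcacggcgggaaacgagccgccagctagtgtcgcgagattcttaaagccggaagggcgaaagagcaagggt

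In the control mice the family had its highest level in the spleen and its lowest in the liver. The median log2 signal of the 55 bright genes was 13.53, 13.60 and 13.54 on the 3 spleen arrays and 12.83, 12.82 and 12.72 in the lungs. It was 12.35, 12.27 and 12.44 in kidney medulla, 12.16, 12 and 12.24 in kidney cortex, and 11.93, 11.88 and 11.9 in the liver. The 5 tissues did not overlap, although the highest cortex array and the lowest medulla array nearly met. Of the signal over background on the array, the 55 bright genes, by the probe used for each, took 8.46% ± 0.136 (SD, n = 3) in the spleen, 6.38% ± 0.177 in lung samples, 4.6% ± 0.219 in medulla samples, 4.43% ± 0.168 in cortex samples and 3.24% ± 0.16 in the liver. Further probes of these genes and the dim genes were not counted. Because these are bulk tissues, fewer cells of a type and less RNA per cell cannot be told apart.

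**Figure D1:**
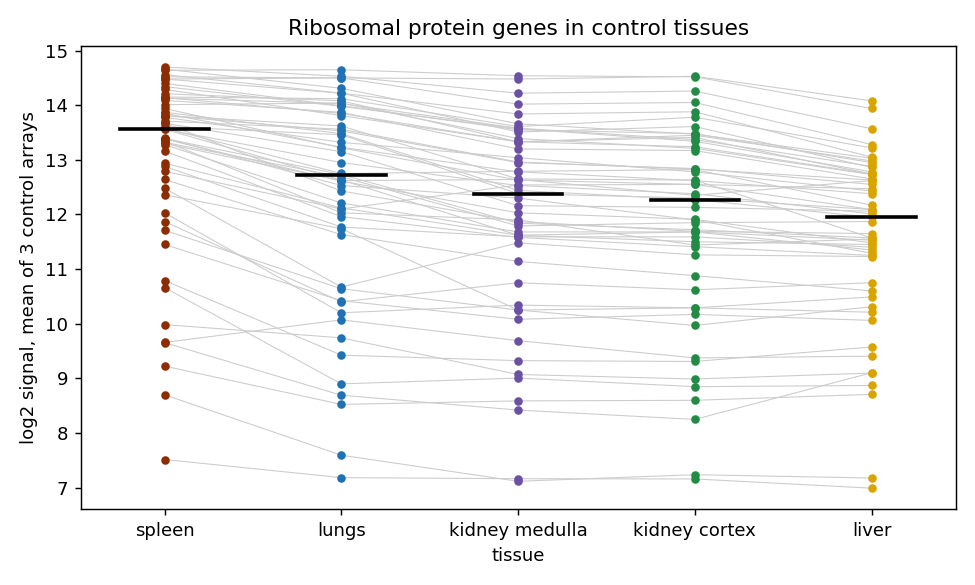
Log2 signal of the 55 bright ribosomal protein genes (points, mean of 3 control arrays) in 5 tissues, with grey lines joining each gene and black bars at the median of the genes. 51 of the 55 genes have their highest value in the spleen and 39 their lowest in the liver.

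Gene by gene, 51 of the 55 bright genes were highest in the spleen, 3 in the lungs (Rpl22, Rpl41, Rps21) and 1 in kidney cortex (Rpl23). The liver was lowest for 39, kidney cortex for 8, the lungs for 5 and kidney medulla for 3. A gene was called where its limma adjusted p was under 0.01 and its change at least 1.5-fold, with 59 of the 64 genes past the filter on dim probes in the fit of the control arrays. Against the liver, 49 of 59 were called higher in the spleen, where 18.9% of all probes were, and the median difference was 1.43 (0.03 over all probes). Against kidney cortex 46 were called higher (all probes, 16.4%), against kidney medulla 45 (16.8%) and against the lungs 27 (11.3%), and none was lower in any of the 4. At an unadjusted p under 0.05 the 4 comparisons held 54, 52, 51 and 42 of the 59 genes, and 57.7%, 56.2%, 56.8% and 49% of all probes.

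Small-subunit genes stood among the largest differences between spleen and liver. Rps19, whose human gene is mutated in Diamond-Blackfan anaemia, read 13.92, 13.79 and 13.72 in the spleen and 11.58, 11.62 and 11.52 in the liver, a log2 difference of 2.24 (SE 0.09, adjusted p = 8.71e-11). No array of one tissue reached the range of the other. Rps3, at the entry of the mRNA channel, differed by 2.11 (SE 0.11, adjusted p = 1.45e-09) and Rps15 by 2.03 (SE 0.07, adjusted p = 8.69e-12). Rps6, the target of S6 kinase, read 13.34 ± 0.079 (SD, n = 3) in the spleen against 11.55 ± 0.072 in the liver and 11.44 ± 0.127 in kidney cortex.

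Of the large subunit, Rpl12 differed between spleen and liver by 2.03 (SE 0.09, adjusted p = 3.83e-10). Rpl19 set the spleen apart from all other tissues alike: it read 11.97, 11.96 and 12.17 there and 10.1 to 10.4 on the 12 control arrays of the others. Rpl5, which can bind Mdm2, was 14.14 ± 0.295 (SD, n = 3) in the spleen and 12.74 ± 0.121 in the liver. The stalk gene Rplp1 read 14.7 ± 0.076 against 13.57 ± 0.074, and its partner Rplp0, on a dim probe, 8.70 ± 0.115 against 7.17 ± 0.115. Rplp2 and Rpsa, the latter also known as the laminin receptor, were too dim to compare, with 0 and 38 of 80 arrays above background.

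Between the other tissues the family moved mostly the same way, with fewer calls. The lungs exceeded the liver in 38 of 59 genes (all probes, 17.3%), kidney cortex in 26 (13.3%) and kidney medulla in 15 (13.1%), and Rps2 alone was called lower than either kidney part (1 of 59, all probes 12.5% lower than in medulla and 12.3% lower than in cortex). Rps2, near the mRNA entry site, read 10.62, 10.63 and 10.77 in the lungs against 11.27, 11.59 and 11.59 in kidney medulla, a difference of -0.81 (SE 0.15, adjusted p = 4.96e-04). Against kidney cortex the difference of Rps2 was -0.59 (SE 0.15, adjusted p = 0.00538), at the 1.5-fold limit. Kidney medulla exceeded the liver in 15 genes (12.2%) and kidney cortex in 8 (11.6%), so those shares, 25.4% and 13.6% of the 59, stood nearer to the background than in the spleen. Rps19 led both, with 1.07 (SE 0.09, adjusted p = 3.12e-07) and 1.06 (SE 0.09, adjusted p = 4.00e-07). No gene was called between kidney medulla and cortex (all probes, 2.10%). At an unadjusted p under 0.05, limma gave 9 of the 59 genes (15.3%), close to the 14.2% of all probes. Rps6 had the smallest adjusted p in that limma fit, 0.0217, with a log2 difference of 0.46 (SE 0.11).

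Many members lay near the top of the signal range, and its part in these differences was not tested. In the spleen, 5 of the genes lay within 0.25 log2 of the highest signal on the array and 22 within 1 log2, against 0 and 2 in the liver. For some genes the probes differed in their order of tissues. The brightest probe of Rpl23, a further Mdm2-binding protein, read 14.53 (cortex), 14.48 (medulla), 14.5 (lungs), 14.48 (spleen) and 14.08 (liver), led by the cortex. Another probe of the gene read 13.64 (cortex), 13.66 (medulla), 14.02 (lungs), 14.33 (spleen) and 13.01 (liver), with the spleen on top as for most of the family. Rps9 was higher in the spleen than in the liver on both its probes, at 13.61 against 12.09 and at 13.25 against 10.97, and so was Rps3, at 13.4 against 11.29 and at 13.21 against 10.95. For Rps19, the second probe did not follow, at 6.98 in the spleen and 6.96 in the liver, close to background.

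Several members have a close copy in the family, and the copies did not always follow each other between tissues. Rps27 read 14.03, 13.97 and 14.09 on lung arrays against 12.97, 12.89 and 12.78 on liver arrays, a difference of 1.15 (SE 0.13, adjusted p = 3.52e-06). Its copy Rps27l, a p53 target, read 11.95, 12.34 and 12.02 on lung arrays against 12.56, 12.49 and 12.35 on liver arrays, a difference of -0.36 (SE 0.13, adjusted p = 0.026). The copies thus differed in opposite directions, although only Rps27 met the 1.5-fold call. Against the lungs, Rps27l was higher in the spleen by 0.69 (SE 0.13, adjusted p = 4.76e-04), and Rps27 gave 0.10 (SE 0.13, adjusted p = 0.601). The differences between the copies themselves were not tested.

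For the pair Rpl36a and Rpl36al, the lungs exceeded kidney medulla by 0.90 (SE 0.10, adjusted p = 5.31e-06) in the first, and the second gave -0.02 (SE 0.11, adjusted p = 0.915). For Rpl22 and its copy Rpl22l1, whose expression Rpl22 represses in mouse, the estimates between spleen and lungs had opposite signs. Rpl22 gave a spleen to lung difference of -0.41 (SE 0.12, adjusted p = 0.0145) and Rpl22l1 0.96 (SE 0.45, adjusted p = 0.106), the latter with a wide spread among replicates. By their control means, the signs were also opposite between lungs and liver and between kidney medulla and liver. They were opposite between spleen and kidney medulla too, where the means of Rpl22 nearly met. The remaining pairs of tissues had the same sign in both. Control means of Rpl22 were 9.66 (spleen), 10.07 (lungs), 9.69 (medulla), 9.37 (cortex) and 9.4 (liver). Those of Rpl22l1 were 9.65, 8.69, 8.42, 8.25 and 9.10 in the same order. Rpl3 was 1.45 higher in the spleen than in the liver (SE 0.09, adjusted p = 1.42e-08), and Rpl3l, the striated muscle form, read 6.77 in the liver and 7.82 in the lungs, above background on 60 of 80 arrays. Rpl39l was above background on no array, and near-identical copies can share signal on a probe.

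Genes that work with the family were taken from fixed lists. Of 24 ribosome assembly genes tested, 22 were called higher in the spleen than in the liver (all probes, 18.9%), with a median of 1.00, among them Nop58 with 2.15 (SE 0.14, adjusted p = 1.29e-08) and Fbl, the rRNA methyltransferase, with 1.59 (SE 0.09, adjusted p = 4.75e-09). Of 19 elongation and initiation factors and other TOP mRNAs, 14 were called higher, led by Nap1l1 and Npm1, with Fau, which encodes the small subunit protein eS30 fused to a ubiquitin-like protein, at 1.81 (SE 0.11, adjusted p = 4.96e-09). All 11 cell cycle genes tested were higher in the spleen, with a median of 2.48. B-cell markers moved the same way, 7 of 7 called, and their median was 10.49 in the spleen against 6.87 to 7.96 in the other tissues. Erythroid markers did too, 4 of 4 tested, with a list median of 12.66 against 7.57 to 8.78. The part of these cells in the spleen level was not tested.

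Mitochondrial ribosomal protein genes were lower in the lungs. Of 70 mitochondrial ribosomal protein genes tested, the lungs were called lower than kidney cortex in 46, than kidney medulla in 40 and than the liver in 36, and higher in none, where 12.3%, 12.5% and 13.8% of all probes were lower. Mrpl12 was 2.05 lower in the lungs than in kidney cortex, with a log2 difference of -2.05 (SE 0.16, adjusted p = 1.33e-07). The spleen was called lower than the liver in 18 (all probes, 14.2%) and higher in 4 (18.9%). In the same lung to liver comparison the cytosolic genes had 38 called higher and none lower.

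Likeness to the family across the 15 control arrays was measured by Pearson's r with the median of the bright genes, as a description, since arrays of a tissue share its make-up. Of 12054 other genes, 5.34% had an r over 0.9 and the median was 0.07. The 5 closest were G3bp1 (0.989), an RNA-binding protein of stress granules, D17H6S56E-5 (0.984), Hnrnpc (0.984), which binds nascent transcripts, Chst3 (0.981), a sulfotransferase, and the elongation factor subunit Eef1g (0.979). Fau had 0.976. Of the bright members themselves, 28 of 55 exceeded 0.9, each against a median that it helps to form, so this count is not comparable with that of other genes. The median r was 0.883 over 19 TOP and translation genes, 0.807 over 24 ribosome assembly genes and -0.505 over 70 mitochondrial ribosomal protein genes. Among cell lists it was 0.93 over 8 T and NK cell, 0.926 over 7 B-cell, 0.881 over 11 cell cycle, 0.807 over 4 erythroid and 0.518 over 5 macrophage genes. Over the 16 arrays of 1 tissue, control and exposed, the r of G3bp1 was lower, -0.28 in the liver to 0.29 in kidney medulla, while that of Fau was 0.52 in the spleen to 0.72 in kidney cortex.

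Against this range between tissues, the exposed groups differed little from controls. The question was whether the level of the family moved with absorbed dose, dose rate or time. No member was called in any of the 25 comparisons of an exposed group with the control of its tissue (limma, adjusted p under 0.01 and 1.5-fold). Over all probes the liver had the largest shares called: after 1.7 kBq 1.24% at 1 h, 0.628% at 6 h and 0.0389% at 7 days, 1.04% after 105 kBq and 1.19% after 7.5 kBq. Kidney cortex had 0.238%, 0.0488% and 0% in the same order of times, 0.201% after 105 kBq and 0.11% after 7.5 kBq. Elsewhere the share was 0%, except for 1 h after 1.7 kBq (0.024% in medulla, 0.0753% in lung, 0.00607% in spleen samples) and for the lungs after 105 kBq (0.0628%) and 7.5 kBq (0.0188%). At an unadjusted p under 0.05 there were 2 to 13 of 59 members in cortex, 1 to 7 of 59 in medulla, 3 to 11 of 60 in liver, 1 to 7 of 60 in lung and 0 to 9 of 61 in spleen samples. Over all probes the share at that limit was 2.82% to 18.1%, and the members' share lay above it in 9 of the 25 comparisons. It was 22% against 12.8% in kidney cortex after 105 kBq, 14.8% against 7.86% in the spleen 6 h after 1.7 kBq, and 10% against 18.1% in the liver 1 h after 1.7 kBq.

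**Figure D2:**
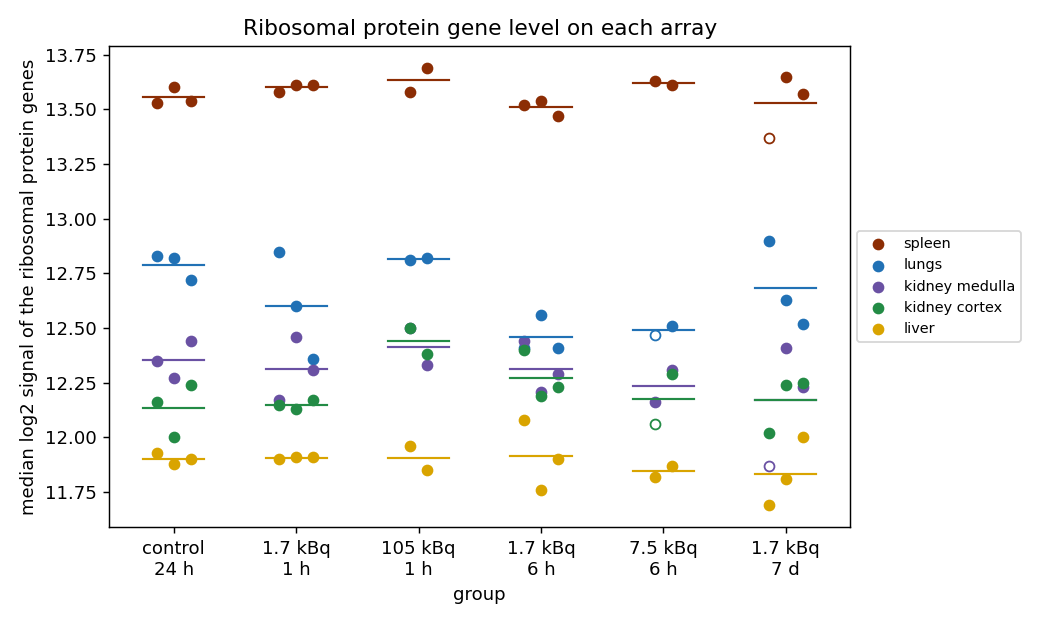
Median log2 signal of the 55 bright ribosomal protein genes on each of the 80 arrays by group (points) with the group mean (bars), coloured by tissue, and with open points for the 4 arrays that carry markers of another tissue. The lowest spleen array lies at 13.37, and no liver array exceeds 12.08.

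The precision of these comparisons differed by tissue. The 95% confidence interval of the change lay wholly within 1.5-fold either way for 54 to 58 of 60 genes in the liver and 53 to 58 of 61 in the spleen. It did so for 47 to 56 of 59 in kidney cortex, for 42 to 49 of 59 in kidney medulla, and in lung samples for 35 to 48 of 60. For the remaining genes the interval reached past 1.5-fold. Without the array in doubt of the tissue, the counts were 48 to 56 in kidney cortex, 50 to 55 in kidney medulla, 31 to 47 for the lungs and 53 to 58 in the spleen. The median change over the tested members lay between -0.14 and 0.16 in all 25.

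**Figure D3:**
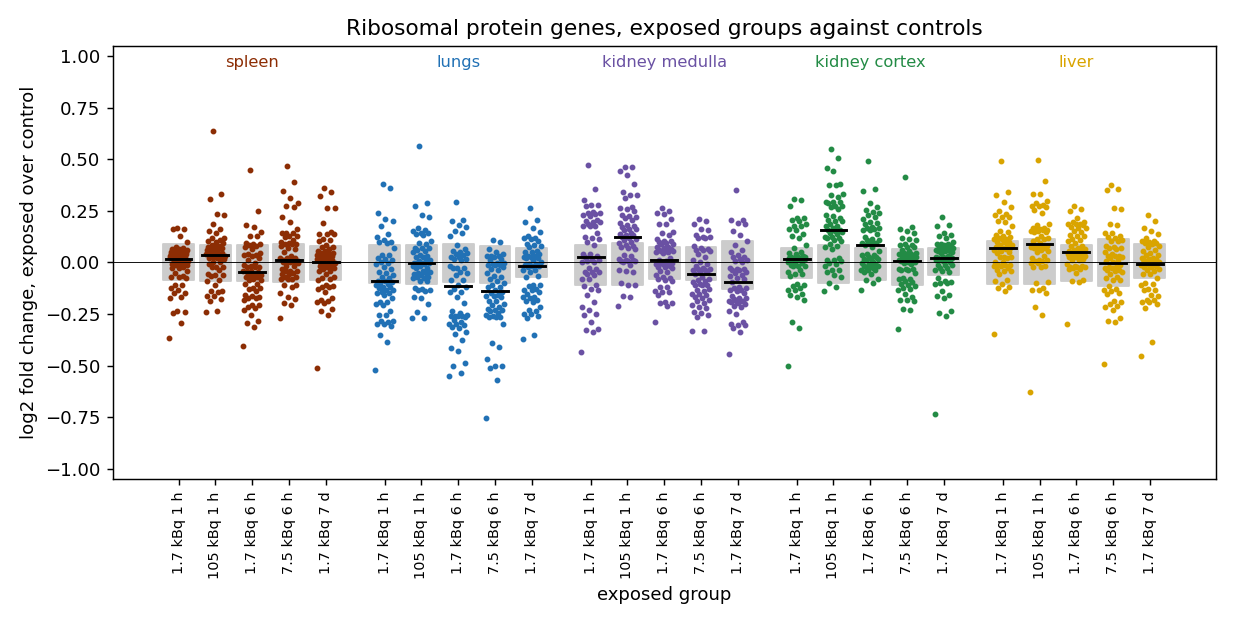
Log2 fold change of each tested ribosomal protein gene (points) in 25 exposed groups against the control of their tissue, with black bars at the median of the genes and grey bands from the lower to the upper quartile of all probes. Points lie between -0.75 and 0.64, and the medians lie between -0.14 and 0.16.

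The medians farthest from 0 were those of kidney cortex 1 h after 105 kBq, 0.16 with 48 of 59 genes higher, and of the lungs 6 h after 7.5 kBq, -0.14 with 49 of 60 lower. Kidney medulla 1 h after 105 kBq gave 0.12 with 49 of 59 higher, and the lungs 6 h after 1.7 kBq gave -0.11 with 40 of 60 lower. In kidney cortex the 2 arrays of 105 kBq had a median level of 12.5 and 12.38 against 12.16, 12 and 12.24 in controls and 12.15, 12.13 and 12.17 after 1.7 kBq at the same time. The 2 arrays therefore lay above these 6, but kidney cortex 1.7 kBq 6 h replicate 1 read 12.4, between the 2. In kidney medulla 7 days after 1.7 kBq the median was -0.10. It was 0.02 without the array whose markers were those of liver and not of kidney, so that this array set the sign. Without the array in doubt the 7.5 kBq median was -0.15 for lung and 0.02 for cortex samples, and the 7-day spleen median was 0.05 (0.003 with it), again with no call.

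The single genes with the largest changes were mostly Rpl22l1 and Rps3a1, whose replicates also varied most. Rpl22l1 had the highest change in the spleen 1 h after 105 kBq, 0.64 (SE 0.44, adjusted p = 0.937), and the lowest in the liver, -0.63 (SE 0.21, adjusted p = 0.12). Rps3a1 gave -0.73 in kidney cortex at 7 days (SE 0.33, adjusted p = 0.917) and -0.75 in the lungs 6 h after 7.5 kBq (SE 0.34, adjusted p = 0.592). The latter was -1.08 without the array in doubt (SE 0.41, adjusted p = 1), with 1 exposed array left, which is assumed to vary like the other groups.

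At the looser limit of an adjusted p under 0.05 with no fold minimum, members passed only in the liver, and all of them were higher. At 1 h after 1.7 kBq these were 3 of 60, which is 5% against 2.96% of all probes. Rps15a, a small subunit protein, read 7.30, 7.31 and 7.33 in exposed mice and 7.02, 6.97 and 6.98 in controls, which is 0.33 higher in log2 (SE 0.07, adjusted p = 0.0103). Rpl13a, part of the large subunit and in human cells of a complex that silences inflammatory transcripts, read 9.52, 9.21 and 9.36 against 9.01, 8.75 and 8.85, a change of 0.49 (SE 0.12, adjusted p = 0.0229). Rplp0 read 7.49, 7.54 and 7.51 against 7.31, 7.10 and 7.12, a change of 0.34 (SE 0.08, adjusted p = 0.0303). In all 3 genes the exposed arrays lay above every control array, and Rps15a and Rplp0 lay close to the background of 6.88.

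**Figure D4:**
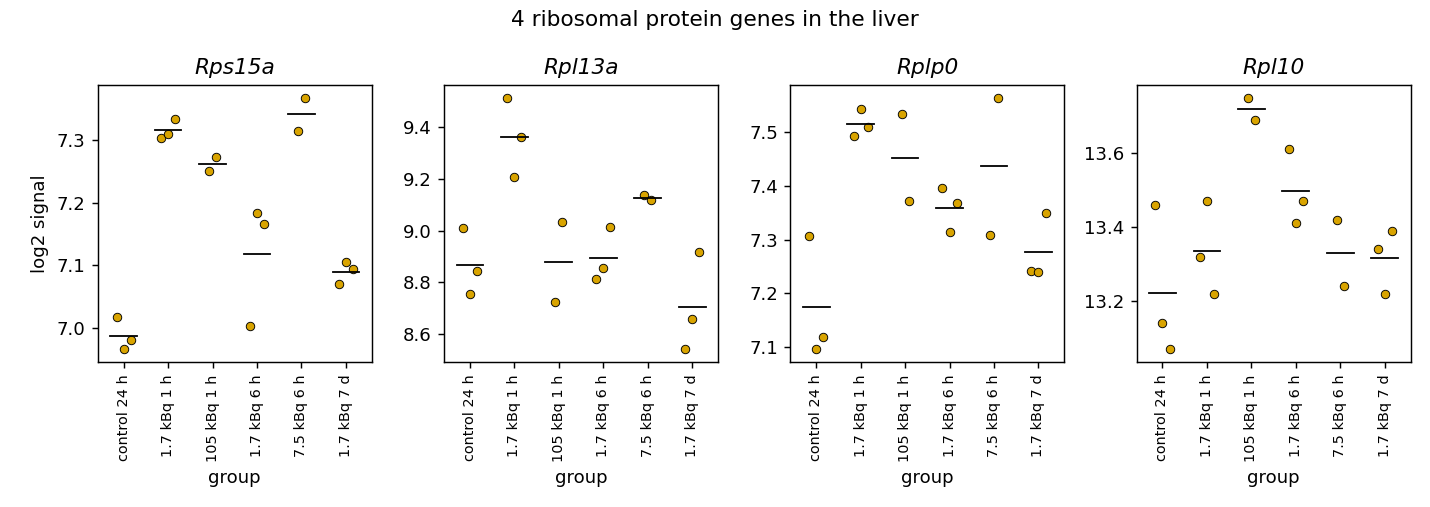
Log2 signal of Rps15a, Rpl13a, Rplp0 and Rpl10 on each of the 16 liver arrays by group (points) with the group mean (bars); the vertical axis is set for each gene and does not start at 0. Rps15a reads 7.25 to 7.37 in the groups 1 h after 1.7 and 105 kBq and 6 h after 7.5 kBq, and 6.97 to 7.02 in controls.

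With more activity, 1 of 60 genes passed at each time in the liver (1.67%, against 2.57% of all probes at 1 h after 105 kBq and 2.46% at 6 h after 7.5 kBq). At 105 kBq it was Rpl10, which takes part in the last step of large subunit maturation, with 13.75 and 13.69 against 13.46, 13.14 and 13.07 in controls, a change of 0.50 (SE 0.12, adjusted p = 0.0265). At 7.5 kBq it was Rps15a, with 7.32 and 7.37, a change of 0.35 (SE 0.08, adjusted p = 0.0145). Rps15a 1 h after 105 kBq read 7.25 and 7.27, again above all controls. Leaving out 1 array in turn, the adjusted p of Rps15a stayed between 0.0222 and 0.0438 after 1.7 kBq and ran from 0.029 to 0.132 after 7.5 kBq. It ran from 0.0211 to 0.112 for Rpl13a and from 0.0194 to 0.119 for Rplp0 at 1 h after 1.7 kBq, and from 0.00785 to 0.16 for Rpl10.

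Between exposed groups 1 of 20 comparisons had a called member. At 1.7 kBq in the liver, Rpl13a was lower at 7 days than at 1 h, with 8.54, 8.66 and 8.92 against 9.52, 9.21 and 9.36, and the groups did not overlap. The change was -0.66 in log2 (SE 0.12, adjusted p = 0.00827), in 1 of 60 members (1.67%) against 0.261% of all probes that were lower and 0.45% called either way. Without 1 array the adjusted p was 0.00555 to 0.0567, and 5 of the 6 such fits made no call. The call was also lost with no filter on dim probes (adjusted p = 0.0124), in 1 fit over all 80 arrays (0.0145) and with the replicate number as a block (0.0107). The same comparison of Rpl13a was -0.60 for lung (SE 0.18, adjusted p = 0.356), -0.32 for cortex (SE 0.11, adjusted p = 0.228), -0.29 for spleen (SE 0.22, adjusted p = 0.842) and -0.26 for medulla arrays (SE 0.11, adjusted p = 0.386). In kidney medulla, no 7-day array (8.93 to 9.08) reached the 1 h range of 9.22 to 9.32, and the 9.08 is that of the array in doubt. Kidney cortex groups did not overlap either, with 8.95, 8.97 and 8.59 at 7 days against 9.26, 9.05 and 9.16 at 1 h. Without the arrays in doubt the change was -0.30 in kidney medulla (SE 0.12, adjusted p = 0.257) and -0.19 in the spleen (SE 0.25, adjusted p = 0.952).

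In the other 19 comparisons between exposed groups no member was called. Of all probes, 0.146% were called in kidney cortex at 7 days against 1 h and 0.0427% at 6 h against 1 h. The shares were 0.0126% and 0.0121% for 7 days against 1 h in the lungs and the spleen, 0.00607% for 6 h against 1 h in the spleen, 0.00556% for each of 6 h against 1 h and 105 against 1.7 kBq in the liver, and 0% in the rest. At an unadjusted p under 0.05 they held 1 to 19 members. Kidney cortex held the most, 18 of 59 (30.5%, all probes 8.67%) for 105 against 1.7 kBq at 1 h and 19 (32.2%, all probes 15.6%) for 6 h against 1 h at 1.7 kBq, with the smallest adjusted p of 0.451 (Rpl30) and 0.0963 (Rpl28). The F test of a difference in exposure effect between tissues, over all 80 arrays, found no member of 61 at an adjusted p under 0.05 for any exposure, where 0.274% to 0.986% of 21507 probes passed. At an unadjusted p under 0.05 the F test held 3 to 6 members of 61, but the share of all probes at that limit was not computed. Its smallest adjusted p for a member was 0.0514, for Rplp0 at 1 h after 1.7 kBq. Without 3 of the 4 arrays that carry another tissue's markers, Rplp0 (0.0227) and Rps16 (0.041) passed at 1 h after 1.7 kBq, Rps16 (0.0425) at 6 h, Rplp0 (0.0454) 1 h after 105 kBq and Rps15a (0.0381) 6 h after 7.5 kBq, all adjusted p. Without all 4, Rplp0 after 105 kBq no longer passed (0.0525), and Rpl10 did (0.0495, against 0.0512 without 3). The share of all probes that passed without these arrays was not computed, so these members cannot be set against it.

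Of the genes that assemble ribosomes, 1 of 24 was called higher in the liver 1 h after 1.7 kBq (0.762% of all probes) and 3 at 6 h after 7.5 kBq (0.812%). Of 24 tested, 24 had estimates above control 1 h after 1.7 kBq with a median of 0.30, 22 after 105 kBq and 21 at 6 h after 7.5 kBq, and 20 at 7 days with a median of 0.07; all probes were higher in 50.1% of cases at 1 h. Rrp12 was called at 1 h after 1.7 kBq, with 0.65 (SE 0.13, adjusted p = 0.00932). At 6 h after 7.5 kBq Rrp12, a factor in subunit export, rose by 0.99 (SE 0.15, adjusted p = 0.00143), Polr1a, the largest subunit of RNA polymerase I, by 0.70 (SE 0.09, adjusted p = 3.19e-04) and Gnl3, nucleostemin, by 0.64 (SE 0.11, adjusted p = 0.00303). The median of the tested ribosomal protein genes in the same comparisons was 0.07 and -0.004. These liver comparisons share their control arrays. The median of the assembly list was also taken on each array. In kidney medulla 1 h after 1.7 kBq it was 8.34, 8.16 and 8.24, against 7.9, 7.87 and 7.92 in controls. In kidney cortex it was 7.97, 8.06 and 8.10 against 7.94, 7.91 and 7.87. Lung and spleen arrays 1 h after 1.7 kBq overlapped their controls. Higher medians were thus not confined to the liver. Spleen arrays 6 h after 1.7 kBq went the other way, with 8.552, 8.515 and 8.491 against 8.815, 8.736 and 8.601 in controls. Liver arrays 6 h after 1.7 kBq read 8.245, 7.917 and 8.036 against 8.028, 7.815 and 7.758. Of the p53 list only Mdm2 is given here, and it does not stand for the other genes of that list. By limma it gave 0.04 in the liver at 1 h after 1.7 kBq (SE 0.08, adjusted p = 0.848).

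The spread among replicates was close to that of other probes. The SD of a gene around its group means over the 80 arrays had a median of 0.155 in the bright genes, against 0.174 over 7993 probes above background on all arrays, and 44 of 55 (80%) stood under 0.2, against 64.8% of those probes. Without the arrays in doubt these were 0.144 and 0.162, and 46 of 55 (83.6%) against 73.7%. Rpl22l1 with an SD of 0.463 and Rps3a1 with 0.437 stood at the 98.2 and 97.8 percentile of all such probes. Rps9 followed with 0.245 and Rps7 with 0.232.

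Rpl22l1 and Rps3a1 deviated together, with an r of 0.849 over the 80 arrays, and Rps9 joined them, with 0.768 to Rps3a1. These were among the highest of 1485 pairs of bright genes, whose median r was 0.206, from 0.0723 in the spleen to 0.338 in kidney medulla. Without the arrays in doubt they were 0.841 and 0.768, with a median of 0.155. Rps7 deviated with Rpl31 at 0.841 (0.79 without them), and that pair was weakly negative to the first, Rps3a1 and Rps7 at -0.244. All of these are descriptions over deviations from group means; 10 of the 30 groups have 2 arrays, whose deviations mirror each other, and deviations on an array share its RNA and scaling. Rps3a1 read 11.14, 9.71 and 10.01 in the controls of kidney cortex, 10.99, 9.29 and 10.46 in those of kidney medulla. Liver controls read 11.07, 10.4 and 9.99, lung controls 12.41, 11.19 and 11.62, and spleen controls 12.53, 12.12 and 12.44. The control array numbered 1 was the highest in all 5 tissues, and in kidney medulla the 3 controls spanned more than any change with exposure in the family.

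**Figure D5:**
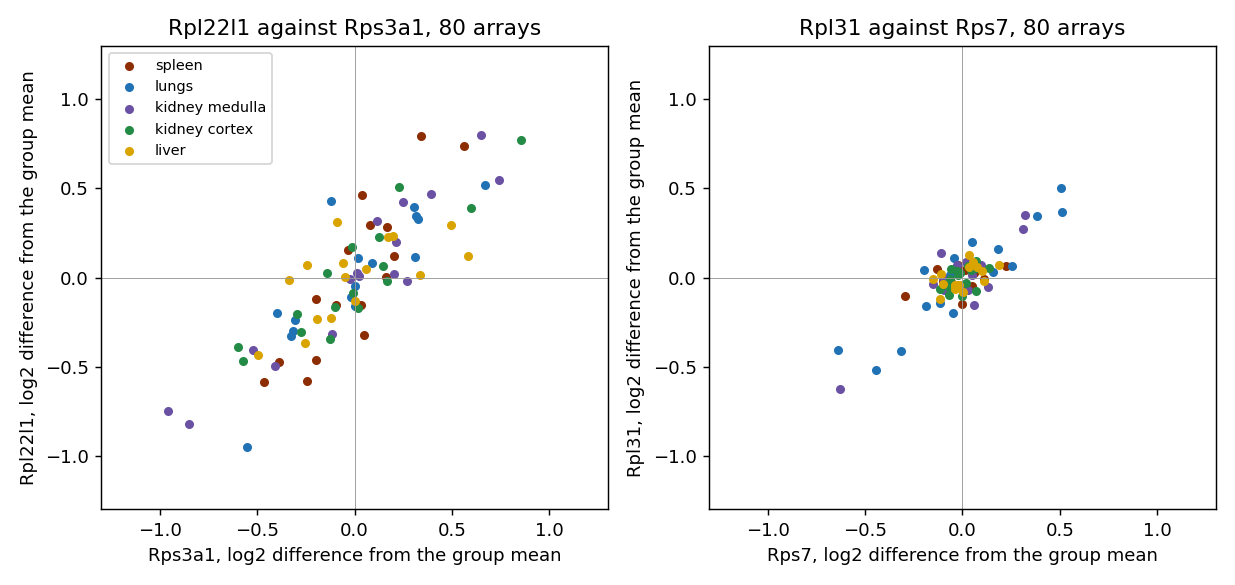
Difference of each of the 80 arrays from its group mean, in log2, for Rpl22l1 against Rps3a1 (left) and Rpl31 against Rps7 (right), coloured by tissue. Points of both pairs run from the lower left to the upper right, with r of 0.849 and 0.841.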

How the data were processed

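Total RNA of 80 samples was measured on Illumina MouseRef-8 BeadChips, with technical triplicates stated in the methods and 1 column per mouse and tissue. The deposited intensity values were made by the authors with Illumina software and BASE and quantile-normalised; they share nearly the same sorted values (largest difference 1.05), on a linear scale. No further normalisation was applied. The table before normalisation was not used here, because its columns could not be paired with samples. Arrays have no read depth, so the number of arrays limits the precision.

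Log2 values were fitted with limma 3.58.1 in R 4.3.3, with 1 fit per tissue over 6 groups, 1 fit over 15 control arrays for the tissues, and 1 fit over 80 arrays for the interaction. P-values were adjusted by Benjamini-Hochberg over all kept probes. A probe was kept with at least 2 arrays of a fit above the background cutoff of 117.4 (mode 106.2 plus 2.33 SD of 4.792). Symbols were read for 23978 probes, and 1719 have none. Named were called members, up to 8 a comparison by size, or up to 2 in each direction where none was called, with close copies, stalk proteins, Rpl5, Rpl23, Rps3, Rps6, Rps19 and called genes of other lists, up to 4. The genes most like the family were taken by their r, and Mdm2 and genes named for their replicate spread or likeness of copies after values were seen. The members and lists were chosen with earlier results of these data known. The fit was tested on simulated data. Replicate numbers are not tied to mice in the labels and were not used as pairs in the main tests. P-values measure the spread between arrays only. Alternatives covered the dim-probe filter, 2 scalings, an intensity trend, a replicate block, probe choice, threshold, 1 fit for all arrays and left-out arrays.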

Additional observations from a re-analysis of the deposited data

How the results depend on the processing

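Counts of called members, both directions together, stayed within 1.5 times their value under both scalings, an intensity trend and any probe of a gene. By direction, Rps2 in the lungs against kidney cortex (-0.59) lost its call when centred on the 95th percentile (-0.58) and without cortex control replicate 2 or 3 or lung control replicate 1 or 2 (-0.60 to -0.46), and 1 lower call was gained in the lungs against the liver when centred on bright probes. At an adjusted p under 0.05 with no fold minimum the counts became 3, 1 and 1 in the liver (1.7 kBq 1 h, 105 kBq 1 h, 7.5 kBq 6 h), 41 for lungs against kidney medulla, 41 for lungs against kidney cortex, 2 for medulla against cortex, 32 for medulla against liver and 28 for cortex against liver. At an unadjusted p under 0.05 by limma, these tissue pairs held 69.5%, 74.6%, 15.3%, 57.6% and 54.2% of the members in the same order. Of all probes they held 50.3%, 49.6%, 14.2%, 46.2% and 44.9%, so many probes pass without a fold minimum. The 1 member of the liver at 7 days against 1 h became 0 with no filter, with 1 fit over all 80 arrays and with the replicate block. No label ties a replicate number to a mouse, although all tissues came from the same mice: same-numbered deviations of exposed and control arrays of a tissue correlated at -0.483 to 0.405, over 0.1 in 25 of 65 pairs, and those between control tissues at -0.151 to 0.564, in 20 of 30; the block changed no other count by over 1.5 times.

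Leaving out 1 array gave 0 to 1 for this count, with the 1 only without the 7-day replicate 3, 5 to 12 for cortex against liver (8 with all, 5 without liver control replicate 3), and 0 to 1 in the liver after 105 kBq (1 without control replicate 1). Rpl22 between spleen and lungs had an adjusted p of 0.0652 without lung control replicate 2. Rpl13a at 1 h after 1.7 kBq had 0.0721 in 1 fit over all arrays and Rplp0 0.0564 with the trend. Members that differ between tissues became 2, 1, 1 and 1 (1 h, 6 h, 105 kBq, 7.5 kBq) without 3 of the arrays with another tissue's transcripts. Without 4 the counts were 2, 1, 1 and 1, where Rpl10 took the place of Rplp0 after 105 kBq. The share of all probes that passed was not computed for these fits. Leaving out the lung array was chosen after the data were seen. Normalisation from raw signals and a BeadChip block were not run, because columns could not be paired with samples. The causes were not tested. Centring arrays on the median of bright probes moved the median of all probes between spleen and liver from 0.03 to -0.08 log2.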
